A study of Mus musculus with 6 samples.

Results

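The Hox genes were examined here in whole colon of mice without the sodium-hydrogen exchanger NHE3 (NHE3-/-) and of mice with it (NHE3+/+). A Hox gene was counted when at least 1 probe set of the array named that gene alone, by a symbol made of Hoxa, Hoxb, Hoxc or Hoxd and a number. This gave 33 of the 39 Hox genes in RefSeq, read by 48 of the 45101 probe sets. Where several probe sets named a gene, the one with the highest signal averaged over the 6 arrays stood for it, and the rest served to check direction.

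Hox genes encode homeodomain transcription factors that give cells their position along the head-to-tail axis. In the mouse they lie in 4 clusters, Hoxa on chromosome 6, Hoxb on 11, Hoxc on 15 and Hoxd on 2, and are numbered from 1 to 13 by their place in the cluster, genes of the same number being paralogues. Low numbers are expressed first and from the hindbrain backwards, and high numbers later and toward the tail, so that the genes numbered 13 mark the hindmost part of the trunk, including the hindgut. In the adult gut Hox transcripts are found in the muscle and connective tissue of the wall and, toward its distal end, in the epithelium as well.

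The 3 NHE3-/- arrays and the 3 NHE3+/+ arrays each held RNA of dissected whole colon from animals aged 6 to 8 weeks, and the 2 genotypes were littermates. The sources used here give neither strain, sex, the disrupted part of Slc9a3, nor whether an array held 1 animal or a pool. The spread that p-values measure is therefore that between these arrays, and it may be technical. Pairs of arrays had log2 signals that correlated at 0.965 to 0.973 between NHE3-/- arrays, 0.969 to 0.970 between NHE3+/+ arrays and 0.932 to 0.959 between genotypes. Epithelial markers were present, with 9 of 9 above the filter on dim probe sets described below. Slc9a3, the gene of NHE3, had a signal of 4634 ± 1196 on NHE3-/- arrays and 6075 ± 531 on NHE3+/+ arrays (SD, n = 3 each; limma adjusted p = 0.120) by its brighter probe set. Its dimmer probe set went the other way, with 449 ± 173 on NHE3-/- arrays and 266 ± 137 on NHE3+/+ arrays (0.76 on the log2 scale; limma adjusted p = 0.230). A probe set outside the disrupted part checks nothing. Xist, the transcript of the inactive X chromosome, had 2639, 1929 and 12.3 on NHE3-/- arrays 1, 2 and 3 and at most 8 on the NHE3+/+ arrays. The Y-linked Eif2s3y had 933 to 1355 on NHE3-/- arrays and 1434 to 1809 on NHE3+/+ arrays. NHE3-/- arrays 1 and 2 thus carried both Xist and Y-linked signal, and the other arrays Y-linked signal with little Xist. By these transcripts the sex make-up of the RNA on NHE3-/- arrays 1 and 2 differed from that on the other arrays. Its part in the genotype differences was not tested. Values with NHE3-/- array 3 alone are given beside the results. In that setting the spread comes from the NHE3+/+ arrays alone and the lone array is assumed to vary like them, so its p-values carry no replicate check of the NHE3-/- group. A fit with Xist as a covariate makes nearly the same contrast, since it is mainly arrays 1 and 2 that carry Xist.

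Signals are linear array units, which cannot be compared between probe sets. Fold changes are differences of log2(signal + 31.4), NHE3-/- minus NHE3+/+, from a limma fit to all 27024 probe sets whose mean log2 value was at or above the 40th percentile (a signal of about 60.2). A gene was called when its Benjamini-Hochberg adjusted p over all of these was under 0.05. Of the 33 Hox genes, 20 passed the filter and were tested. The other 13 were Hoxa4, Hoxb1, Hoxb7, Hoxc4, Hoxc5, Hoxc8, Hoxc9, Hoxc10, Hoxc13, Hoxd1, Hoxd3, Hoxd9 and Hoxd12. Their representative signals ran from 2.3 to 95 over all arrays. Both group means lay above the filter for 18 of the 20. Hoxa2 passed through its NHE3+/+ signals and Hoxc6 through its NHE3-/- signals.

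In NHE3-/- colon the 3 tested genes of paralogue number 13, Hoxa13, Hoxb13 and Hoxd13, rose, and 2 genes of lower number, Hoxa7 and Hoxb3, fell. Of all probe sets tested, 4.97% were called higher and 6.24% lower, and with 1 probe set per gene 6.42% and 7.55%. The other 15 tested Hox genes did not pass the threshold, with log2 fold changes from -0.86 to 0.47 and adjusted p from 0.0627 to 0.904. Of the 20, 11 had an unadjusted limma p under 0.05. The share of all probe sets under that unadjusted p was not counted. Counts at an unadjusted p, here and for the lists below, therefore have no background beside them. The median log2 fold change of the tested Hox genes was -0.36, against -0.10 for all probe sets tested. In whole tissue, fewer cells of a type and less RNA per cell cannot be told apart.

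**Figure D1:**
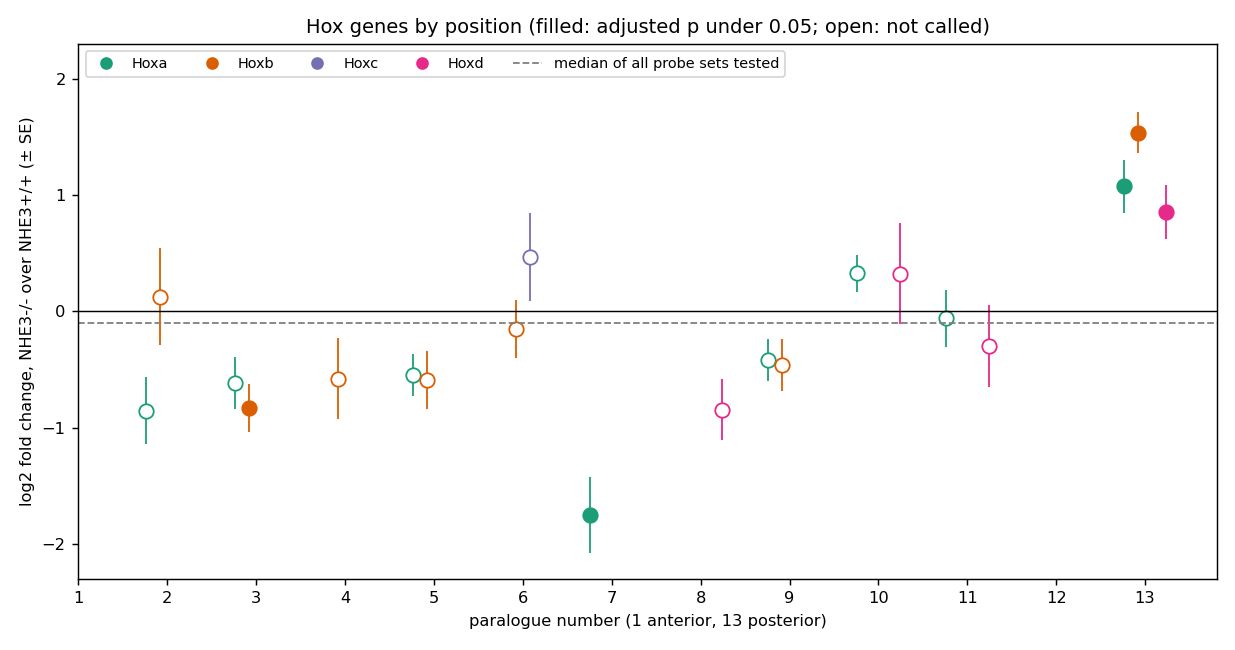
Log2 fold change (NHE3-/- over NHE3+/+, ± limma SE) of the 20 tested Hox genes against paralogue number, coloured by cluster; filled points passed the threshold, open points did not, and the dashed line is the median of all probe sets tested (-0.10). The 3 genes numbered 13 lie between 0.86 and 1.54, above the 17 other genes, which lie between -1.75 and 0.47.

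The paralogue 13 genes are described first. Hoxb13, a gene of the tail end of the embryo and of adult distal colon, rectum and prostate epithelium, had signals of 8486, 9834 and 12865 on NHE3-/- arrays 1, 2 and 3, against 3518, 4379 and 2811 on NHE3+/+ arrays 1, 2 and 3. Every NHE3-/- value exceeded the highest NHE3+/+ value. The means were 10395 ± 2243 and 3569 ± 785 (SD, n = 3 each), a ratio of 2.91, and the log2 fold change was 1.54 (SE 0.18; limma adjusted p = 0.000434). Among the 16 alternative settings it was called in all 16, with log2 fold changes from 1.37 to 1.88. With NHE3-/- array 3 alone it was 1.86.

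Hoxa13, which is needed for hindgut, limb and genital tract development, had 548, 574 and 557 on the NHE3-/- arrays, against 349, 266 and 164 on the NHE3+/+ arrays. The NHE3-/- arrays were close together and all above the NHE3+/+ arrays, whose values spread more widely. The means were 560 ± 12.9 and 259 ± 92.7 (SD, n = 3 each), with a log2 fold change of 1.08 (SE 0.23; limma adjusted p = 0.0131). The call held in each of the 6 fits that left out 1 array (0.82 to 1.30). It was lost with NHE3-/- array 3 alone (1.07, adjusted p = 0.113), with Xist as a covariate (1.06, adjusted p = 0.0882) and without a mean-variance trend (1.08, adjusted p = 0.0583).

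Hoxd13, which patterns digits and the anorectal region, has 2 probe sets on the array. Its brighter one gave 1132, 2175 and 1355 on the NHE3-/- arrays, against 642, 802.5 and 1038 on the NHE3+/+ arrays. The groups did not overlap, although NHE3-/- array 1 was close to NHE3+/+ array 3. The means were 1554 ± 549 and 828 ± 199 (SD, n = 3 each), with a log2 fold change of 0.86 (SE 0.23; limma adjusted p = 0.0380). The dimmer probe set had 293, 506 and 413 on the NHE3-/- arrays and 271, 146 and 181 on the NHE3+/+ arrays, with a log2 fold change of 0.92 (SE 0.25; limma adjusted p = 0.0397). The call of the brighter probe set was lost without NHE3-/- array 2 (0.59, adjusted p = 0.0993) or 3 (0.93, adjusted p = 0.0677) and without NHE3+/+ array 1 (0.69, adjusted p = 0.104) or 2 (0.85, adjusted p = 0.106). It was also lost with NHE3-/- array 3 alone (0.72, adjusted p = 0.133), without a filter (adjusted p = 0.0619), without a mean-variance trend (adjusted p = 0.125) and with Xist as a covariate (0.75, adjusted p = 0.221). The remaining gene of that number, Hoxc13, was dim, with 5.3, 9.8 and 10.8 on the NHE3-/- arrays and 5.1, 52.1 and 65.4 on the NHE3+/+ arrays, and was not tested.

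**Figure D2:**
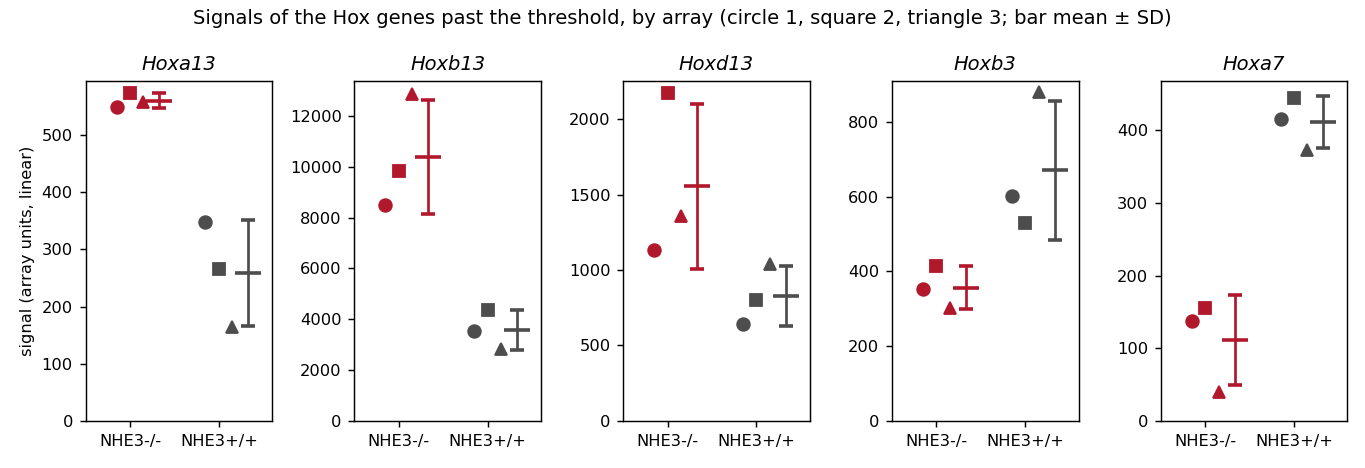
Signal (linear array units, each axis from 0) of the 5 called Hox genes on NHE3-/- arrays (red, left) and NHE3+/+ arrays (grey, right); symbols mark arrays 1, 2 and 3 and bars give mean ± SD (n = 3). In each panel the groups do not overlap: Hoxa13, Hoxb13 and Hoxd13 are higher and Hoxb3 and Hoxa7 lower on all 3 NHE3-/- arrays.

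Among the genes that fell, Hoxa7, which patterns the thoracic axis, had the larger log2 change. Its signals were 138, 156 and 40.1 on the NHE3-/- arrays, against 416, 445 and 373 on the NHE3+/+ arrays. All NHE3-/- values lay below all NHE3+/+ values, and NHE3-/- array 3 was well below the other arrays of its group. The means were 111 ± 62.2 and 411 ± 36.0 (SD, n = 3 each), with a log2 fold change of -1.75 (SE 0.33; limma adjusted p = 0.00721). It was called in all 16 alternative settings, at -1.31 without NHE3-/- array 3 and -2.63 with that array alone.

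Hoxb3, which patterns the hindbrain and pharyngeal region and is expressed in blood progenitors, had 354, 415 and 302 on the NHE3-/- arrays, against 600.2, 529 and 879.8 on the NHE3+/+ arrays. The groups did not overlap. The means were 357 ± 56.6 and 670 ± 185 (SD, n = 3 each), with a log2 fold change of -0.83 (SE 0.20; limma adjusted p = 0.0251). Its other probe set had -0.69 (SE 0.32; limma adjusted p = 0.195). The call was lost without NHE3-/- array 1 (-0.83, adjusted p = 0.0635) or 3 (-0.73, adjusted p = 0.0829), without NHE3+/+ array 3 (-0.63, adjusted p = 0.0850), and with NHE3-/- array 3 alone (-1.04, adjusted p = 0.0614). Setting array medians equal (-0.74, adjusted p = 0.0604), quantile normalization (-0.70, adjusted p = 0.0561), omission of the mean-variance trend (adjusted p = 0.0818) and the Xist covariate (-1.03, adjusted p = 0.0579) also ended it.

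The RefSeq promoter windows (build GRCm38.p6) of called genes are shown because these genes moved in opposite directions, and because the letters of known regulatory motifs can be read in them. Windows were found for 3 of the 5, Hoxa7, Hoxa13 and Hoxd13, and the 250 bases before each start are printed 5′ to 3′ on the strand of the gene. Capitals mark matches, on either strand, to TTTATG, a core bound by the caudal homeodomain proteins Cdx1 and Cdx2, to CAATAAA, a core bound by Cdx2 and by paralogue 13 proteins, and to TATAAA, the TATA box. The Hoxa7 window is chr6:52218574-52218823 and the Hoxa13 window chr6:52260881-52261130, both on the minus strand. The Hoxd13 window is chr2:74667975-74668224 on the plus strand.
Hoxa7: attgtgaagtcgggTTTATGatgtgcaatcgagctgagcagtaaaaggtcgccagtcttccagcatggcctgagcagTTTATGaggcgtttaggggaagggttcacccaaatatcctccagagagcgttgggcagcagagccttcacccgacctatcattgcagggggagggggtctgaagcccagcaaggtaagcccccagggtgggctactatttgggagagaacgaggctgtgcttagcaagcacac
Hoxa13: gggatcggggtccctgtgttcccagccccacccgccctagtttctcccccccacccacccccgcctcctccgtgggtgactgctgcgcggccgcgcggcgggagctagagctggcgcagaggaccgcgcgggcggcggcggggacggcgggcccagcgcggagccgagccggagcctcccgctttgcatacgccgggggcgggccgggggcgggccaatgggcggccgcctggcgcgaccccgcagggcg
Hoxd13: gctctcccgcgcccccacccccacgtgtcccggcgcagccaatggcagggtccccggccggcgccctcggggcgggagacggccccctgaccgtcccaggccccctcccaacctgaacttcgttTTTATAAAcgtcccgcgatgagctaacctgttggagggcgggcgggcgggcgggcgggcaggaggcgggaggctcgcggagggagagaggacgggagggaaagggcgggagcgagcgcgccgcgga
The Hoxa7 window held TTTATG at 2 places, 236 and 173 bases before the start, and 54.8% of its bases were G or C. TTTATG was found in 10.8% of the 32851 promoter windows of this length, CAATAAA in 4.2% and TATAAA in 12.4%. The Hoxa13 window held none of the 3 motifs. The Hoxd13 window held 2 overlapping matches to the TATA motif, on opposite strands. Among the other Hox genes with a window, TTTATG was also found for Hoxd3, which was dim, and Hoxd11, which was not called. TATAAA was also found in a window of Hoxa10, which was not called. G and C made up 80.0% of the Hoxa13 window and 74.4% of the Hoxd13 window, against a median of 52.4% and a 95th percentile of 73.6% over all windows. A match is a run of letters, and no binding was measured.

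By position, 7 of the 11 tested genes numbered 1 to 8 had all 3 NHE3-/- signals below all 3 NHE3+/+ signals, and none had them above. Over all probe sets tested, 20.1% lay entirely lower in this way and 12.2% entirely higher. Of the 9 genes in that range with both group means above the filter, which leaves out Hoxa2 and Hoxc6, 6 lay entirely lower. The 7 were Hoxa2, Hoxa3, Hoxa5, Hoxa7, Hoxb3, Hoxb5 and Hoxd8. Of the 9 tested genes numbered 9 to 13, 4 lay entirely higher (Hoxa10 and the 3 genes numbered 13) and none entirely lower. The other Hoxa10 probe set, under the filter, lay entirely lower, with 32.2 to 46.4 on NHE3-/- arrays and 61.7 to 84.6 on NHE3+/+ arrays. The median log2 fold change was -0.62 for numbers 1 to 4 (5 genes), -0.57 for 5 to 8 (6 genes) and 0.32 for 9 to 13 (9 genes). Within the last range it was -0.18 for the 6 genes numbered 9 to 12, none of which was called.

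Without a filter, over all 33 genes, the same 3 position groups had medians of -0.30, -0.29 and 0.22. The 19 genes numbered 1 to 8 then had 5 positive and 14 negative log2 fold changes, and 7 lay entirely lower and none entirely higher, against 14.2% and 9.64% of all probe sets. In that fit 2 Hox genes were called higher and 2 lower, against 2.39% and 2.5% of all probe sets. Across the 20 tested genes the Spearman correlation of log2 fold change with paralogue number was 0.65. It was 0.44 over the 17 genes left without number 13, and 0.38 over all 33 genes without a filter. These correlations are across genes that share arrays and clusters, and they describe these libraries only.

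**Figure D3:**
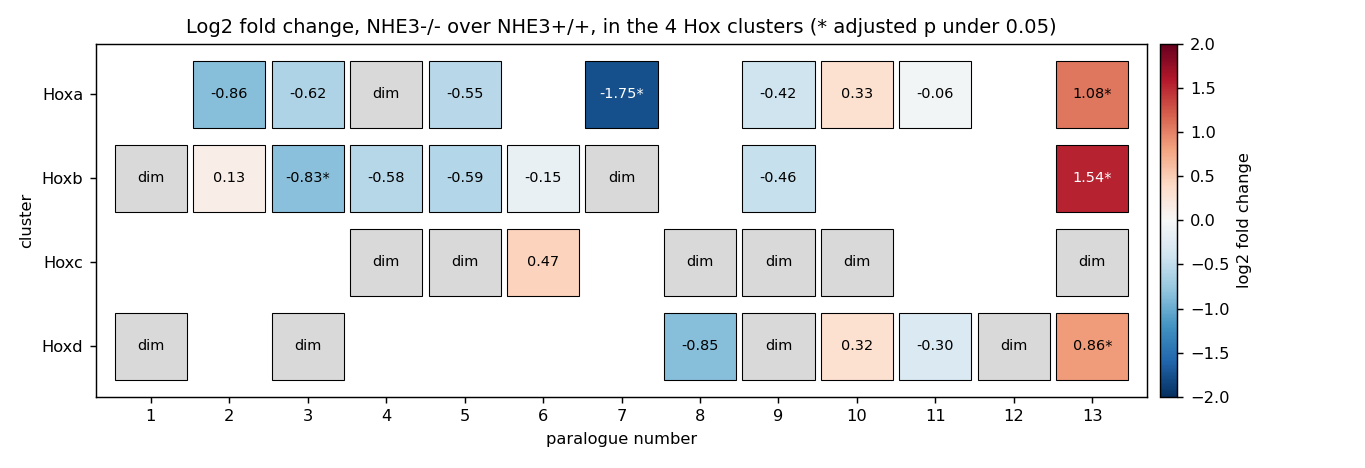
The 33 Hox genes on the array arranged by cluster (rows) and paralogue number (columns); colour and figures give the log2 fold change, NHE3-/- over NHE3+/+, with an asterisk where the adjusted p was under 0.05. Grey boxes are genes under the filter (dim); 6 of the 7 Hoxc genes on the array are dim.

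In the Hoxa cluster 8 of 9 genes were tested, and 2 had positive and 6 negative log2 fold changes, with a median of -0.48. Hoxa2, a hindbrain and pharyngeal arch gene, had 55.1, 43.6 and 46.4 on the NHE3-/- arrays and 125, 94.1 and 121 on the NHE3+/+ arrays (log2 fold change -0.86, SE 0.29; limma adjusted p = 0.0810). Its arrays did not overlap between genotypes, but the signals were near the filter. Hoxa11, a gene of kidney, limb and uterus development, had the smallest difference in the cluster, with 159, 168 and 186 on the NHE3-/- arrays and 251, 171 and 132 on the NHE3+/+ arrays (-0.06, SE 0.25; limma adjusted p = 0.904). Its sign changed with the scaling, to 0.03 with medians set equal and 0.11 with quantile normalization.

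Hoxa5, which acts in lung and gut development, had 299, 302 and 345 on the NHE3-/- arrays and 385, 537 and 517 on the NHE3+/+ arrays (-0.55, SE 0.18; limma adjusted p = 0.0723). Its second probe set, of a type that can hybridise with other transcripts, ran the other way at 0.43 (limma adjusted p = 0.252), so its direction depended on the probe set. Hoxa9, a regulator of blood progenitors and of the posterior axis, had 1327, 1484 and 866 on the NHE3-/- arrays and 1675, 1706 and 1462 on the NHE3+/+ arrays (-0.42, SE 0.18; limma adjusted p = 0.159). Its groups overlapped by NHE3-/- array 2. With NHE3-/- array 3 alone, the lowest NHE3-/- array for Hoxa9, its log2 fold change was -0.87. With the Xist covariate it was -0.90, and Hoxa9 was called lower in that fit.

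In the Hoxb cluster 7 of 9 genes were tested, and 2 had positive and 5 negative log2 fold changes, with a median of -0.46. Hoxb5, a gene of the enteric neural crest and foregut, had 165, 149 and 179 on the NHE3-/- arrays and 180.1, 271 and 364 on the NHE3+/+ arrays. This was the largest difference among uncalled Hoxb genes (-0.59, SE 0.25; limma adjusted p = 0.155). Hoxb2, a hindbrain gene, was the smallest, with 104, 63 and 55 on the NHE3-/- arrays and 83.8, 19.6 and 112 on the NHE3+/+ arrays (0.13, SE 0.42; limma adjusted p = 0.875), and its sign changed when NHE3-/- array 1 or NHE3+/+ array 2 was left out. Hoxb9, the tested Hoxb gene next to Hoxb13 in order, had 492, 446.5 and 623 on the NHE3-/- arrays and 529.5, 681 and 1041 on the NHE3+/+ arrays (-0.46, SE 0.23; limma adjusted p = 0.210). Hoxb4, which acts in blood stem cells, had -0.58 by its brighter and 0.27 by its dimmer probe set, neither called.

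The Hoxc cluster gave little signal. Hoxc6, the tested member, had 120.1, 57.6 and 86.1 on the NHE3-/- arrays and 22.3, 83.2 and 66.3 on the NHE3+/+ arrays (0.47, SE 0.38; limma adjusted p = 0.457), with overlapping groups. In the Hoxd cluster 4 of 8 genes were tested. Hoxd8, a gene of the trunk, had 120.4, 115 and 195 on the NHE3-/- arrays and 334, 196 and 321 on the NHE3+/+ arrays (-0.85, SE 0.26; limma adjusted p = 0.0627). The groups met without overlapping, and its other probe set had -0.50. Hoxd11, a limb and kidney gene, had the smallest difference (-0.30, SE 0.35; limma adjusted p = 0.627), and Hoxd10, a gene of limb and lumbar motor neurons, had 0.32 (SE 0.43). Over the 20 tested genes, 9 further probe sets passed the filter. Of these, 7 had the direction of the representative and 2, those of Hoxa5 and Hoxb4, the opposite.

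Differences between genes of a cluster can also be read within each array, where a common scale factor cancels. The log2 ratio of the paralogue 13 signal to that of each other tested gene of its cluster was taken on every array, with no pseudocount, and set relative to its NHE3+/+ mean. These ratios use the signals already described, so they show those differences array by array and test nothing further. For Hoxa13 over Hoxa7 it was 2.72, 2.61 and 4.53 on NHE3-/- arrays 1, 2 and 3, against 0.48, -0.02 and -0.46 on the NHE3+/+ arrays. For Hoxb13 over Hoxb9 it was 1.83, 2.18 and 2.09 on the NHE3-/- arrays, against 0.45, 0.40 and -0.85 on the NHE3+/+ arrays. In both ratios all NHE3-/- arrays were above all NHE3+/+ arrays. The value of 4.53 rests on a Hoxa7 signal of 40.1, under the filter, and was 3.70 with the pseudocount of the fit.

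For Hoxd13 over Hoxd8 the ratio was 1.68, 2.68 and 1.24 on the NHE3-/- arrays, against -0.61, 0.48 and 0.14 on the NHE3+/+ arrays, again without overlap. The mean difference was positive in all 16 ratios. The groups did not overlap in 7 of 7 ratios for Hoxa13 (0.84 to 3.29), 5 of 6 for Hoxb13 (1.22 to 2.43) and 2 of 3 for Hoxd13 (0.49 to 1.87). The exceptions were Hoxb13 over Hoxb2 and Hoxd13 over Hoxd10. With the pseudocount the counts were 7 of 7 (0.75 to 2.83), 5 of 6 (1.41 to 2.37) and 2 of 3 (0.53 to 1.70). Ratios with the same numerator share its signals, so they are not separate measurements of it.

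**Figure D4:**
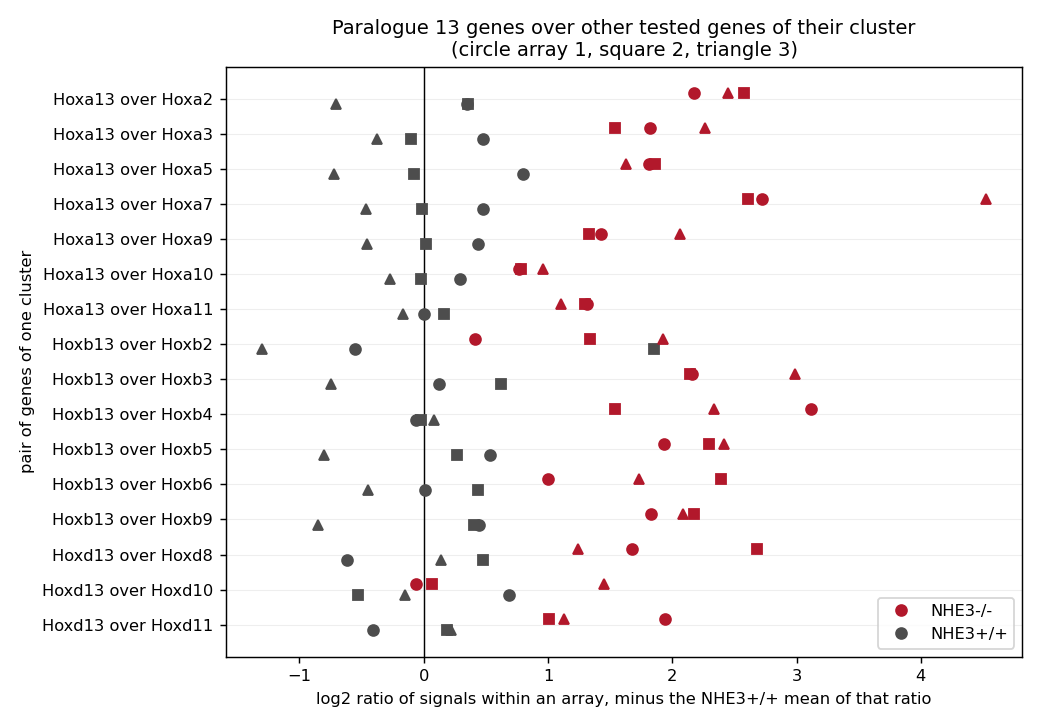
Log2 ratio of Hoxa13, Hoxb13 or Hoxd13 to each other tested gene of its cluster on each array, without a pseudocount, minus the NHE3+/+ mean of that ratio (red NHE3-/-, grey NHE3+/+; circle array 1, square 2, triangle 3). Red points lie to the right of all grey points in 14 of the 16 rows, the exceptions being Hoxb13 over Hoxb2 and Hoxd13 over Hoxd10.

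The clusters also hold transcripts that the count of 33 genes leaves out. Hoxd3os1, a noncoding transcript from the strand opposite Hoxd3, had 119, 139 and 99.4 on the NHE3-/- arrays and 409, 334 and 678 on the NHE3+/+ arrays. The groups did not overlap, and it fell by a log2 fold change of -1.70 (SE 0.26; limma adjusted p = 0.00235). A probe set that names both Hoxd3 and Hoxd4, and so can be assigned to neither, had 5.8, 74 and 48.1 on the NHE3-/- arrays and 108, 193 and 281 on the NHE3+/+ arrays (-1.66, SE 0.43; limma adjusted p = 0.0314). It passed the filter through its NHE3+/+ signals. In the fit without a filter it was not called (limma adjusted p = 0.0663). The second such probe set was under the filter, with 34.3, 25.4 and 6.2 on the NHE3-/- arrays and 88.6, 102 and 79.3 on the NHE3+/+ arrays. Hoxa11os (-0.60, SE 0.18; limma adjusted p = 0.0594), Hoxb5os (-0.42, SE 0.22; limma adjusted p = 0.239) and the probe set that names both Hoxb7 and Hoxb8 (-0.43, SE 0.23; limma adjusted p = 0.246) were not called. All 3 had every NHE3-/- signal below every NHE3+/+ signal, as did 20.1% of all probe sets tested. Evx1, a homeobox gene beyond the Hoxa13 end of its cluster, had -1.06 (SE 0.50; limma adjusted p = 0.198).

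Hox proteins bind DNA together with cofactors of the TALE homeodomain class. Of 7 tested cofactor genes 0 rose and 1 fell by limma, against 4.97% and 6.24% of all probe sets, and at an unadjusted p under 0.05, 0 were higher and 2 lower. Pbx3 had 103, 136 and 70.2 on the NHE3-/- arrays and 263, 260.1 and 386 on the NHE3+/+ arrays (-1.33, SE 0.26; limma adjusted p = 0.00881). It was called in all 16 alternative settings, but its other probe set had -0.32 and was not called. By their representative probe sets Pbx2 (-0.25), Pknox1 (-0.23), Pknox2 (-0.13), Tgif1 (-0.33), Meis1 (0.20) and Meis3 (0.12) did not pass. For Pbx2 the call depended on the probe set. A dimmer Pbx2 probe set was called lower (limma adjusted p = 0.0173). It had 135.3 to 189.7 on NHE3-/- arrays and 277 to 461.8 on NHE3+/+ arrays. Another Pbx2 probe set had -0.48 (limma adjusted p = 0.106) and was not called.

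Genes that set or maintain Hox expression include the caudal factors, the Polycomb proteins and the MLL complex. Of 23 tested, 0 rose and 3 fell by limma, against 4.97% and 6.24% of all probe sets. At an unadjusted p under 0.05, 1 was higher and 7 lower, and 18 of the 23 log2 fold changes were negative. The median over all probe sets tested was itself negative, at -0.10. Cdx2, the caudal factor that specifies intestinal epithelium, had 2894, 2866 and 2444 on the NHE3-/- arrays and 3506, 4015 and 4863 on the NHE3+/+ arrays (-0.58, SE 0.13; limma adjusted p = 0.0191). The groups did not overlap, and a second Cdx2 probe set had -0.38 (limma adjusted p = 0.103). Ezh2, the Polycomb methyltransferase (-0.56, SE 0.14; limma adjusted p = 0.0254), and Wdr5, a core MLL subunit (-0.48, SE 0.14; limma adjusted p = 0.0427), also fell. The other Wdr5 probe set had -0.16 (limma adjusted p = 0.633) and was not called. Of 16 alternative settings, Cdx2 was called in 10, Ezh2 in 7 and Wdr5 in 3. All 3 calls were lost with array medians set equal, and the list held 0 lower calls without NHE3-/- array 3, without NHE3+/+ array 3 or with NHE3-/- array 3 alone.

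Among 13 tested genes with regional expression along the gut, 1 rose and 2 fell, against 4.97% and 6.24% of all probe sets. Insl5, a peptide hormone of enteroendocrine cells of the distal colon and rectum, had 6656, 8623 and 10442 on the NHE3-/- arrays and 3638, 3598 and 2309 on the NHE3+/+ arrays (1.43, SE 0.19; limma adjusted p = 0.00117). The groups did not overlap. Insl5 was called in all 16 alternative settings. Zfhx3, a homeobox factor, had 323, 423 and 175 on the NHE3-/- arrays and 755, 699 and 984 on the NHE3+/+ arrays (-1.38, SE 0.26; limma adjusted p = 0.00760). Of its 6 tested probe sets 4 were called lower. Nr2f2, an orphan nuclear receptor of mesenchyme and vessels, had -0.66 (SE 0.16; limma adjusted p = 0.0233) and was called in 7 of 16 alternative settings. Its other tested probe sets had log2 fold changes from -0.61 to -0.45, and none of them was called.

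Markers of the cells that make up the colon wall are given because Hox genes are expressed in several of them. Of 9 epithelial markers 2 rose (Cdh17 0.54, Vil1 0.41) and 1 fell (Krt18 -0.81). Over all probe sets tested, 4.97% were called higher and 6.24% lower, for comparison with this and the following marker lists. The summed signal of the epithelial markers was 209486 to 244498 on NHE3-/- arrays and 193332 to 217690 on NHE3+/+ arrays. Of 8 fibroblast and matrix markers 1 fell (Vim -0.86), with summed signals of 3530 to 4358 on NHE3-/- arrays and 4086 to 5167 on NHE3+/+ arrays. Smooth muscle markers gave 0 calls among 5 tested by limma, with 0 at an unadjusted p under 0.05, and summed signals of 1252 to 2466 on NHE3-/- arrays and 1646 to 1760 on NHE3+/+ arrays, with Cnn1, Lmod1 and Synm under the filter.

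Of 2 pacemaker cell markers, Kit, also of mast cells, fell by 1.10 on the log2 scale, and Ano1 had 0.06 (limma adjusted p = 0.800) and was not called. All 3 adipose markers on the array fell (Adipoq -1.77, Car3 -2.42, Fabp4 -2.08), with summed signals of 193 to 981 on NHE3-/- arrays and 1365 to 5644 on NHE3+/+ arrays. Adipoq passed the filter through its NHE3+/+ signals. In the fit without a filter Car3 was called (limma adjusted p = 0.0255). Fabp4 (limma adjusted p = 0.053) and Adipoq (limma adjusted p = 0.0936) were not called there. Enteric neuron and glia markers (4 tested), leukocyte markers (4), endothelial markers (2), small intestinal markers (4), skeletal muscle markers (2) and squamous epithelium markers (4) gave 0 calls by limma. Beside these counts, 4.97% of all probe sets tested were called higher and 6.24% lower. At an unadjusted p under 0.05, 2 leukocyte markers were lower (Ptprc -0.89, Cd79a -1.13). Of the small intestinal markers 1 was higher (Fabp6 1.01) and 1 lower (Fabp2 -0.30) at that p. No tested neuron and glia, endothelial, skeletal muscle or squamous marker passed it. Under the filter were Elavl4, Gfap, S100b and Tubb3 of the neuron and glia markers and Itgam of the leukocyte markers. Summed signals cover every marker of a list on the array, with those under the filter included. On NHE3-/- and NHE3+/+ arrays the sums were 391 to 922 and 470 to 585 for neurons and glia. They were 1580 to 2243 and 2192 to 5124 for leukocytes, and 788 to 984 and 718 to 953 for squamous epithelium. Of the squamous markers Krt1, Krt14, Krt4 and Trp63 were under the filter. Krt14 had 4.1, 11.1 and 4.1 on the NHE3-/- arrays and 62.6, 63.7 and 79.8 on the NHE3+/+ arrays. In the fit without a filter it was lower (-1.40, limma adjusted p = 0.0188). Krt1, Krt4 and Trp63 overlapped between genotypes. The part of the cell markers in the Hox differences was not tested.

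**Figure D5:**
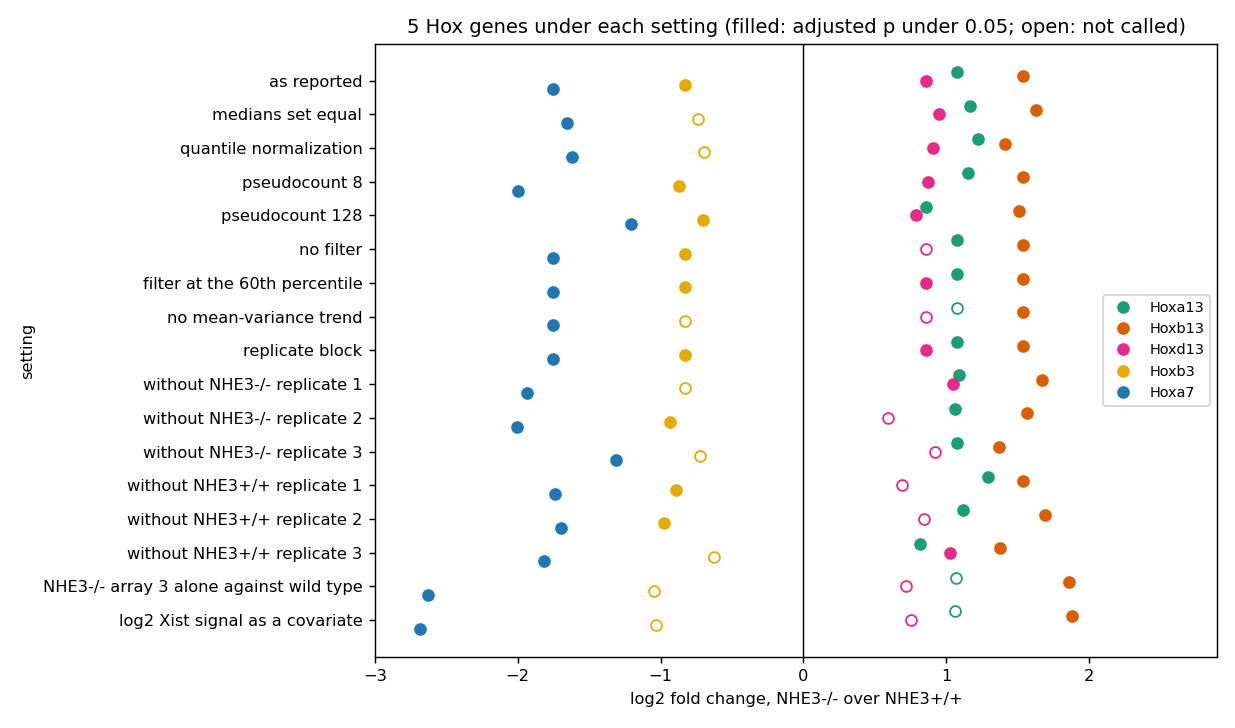
Log2 fold change, NHE3-/- over NHE3+/+, of the 5 called Hox genes as reported and under each of 16 alternative settings (filled where the adjusted p was under 0.05, open otherwise). Hoxb13 and Hoxa7 are filled throughout, Hoxa13 in 13, and Hoxd13 and Hoxb3 in 8 alternatives each; each gene stays on its side of 0 in all settings shown.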

How the data were processed

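For each array the authors deposited 1 linear intensity per probe set, from Affymetrix MOE430 2.0 arrays hybridised with biotin-labelled cRNA made from 10 ug of total RNA. GCOS, Affymetrix's software, is named in the submitters' processing notes without a version. The trimmed mean (2% from each end) is 500 on each array. Detection calls were not used here. Precision is limited by the number of arrays.

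Probe sets were named through GEO's platform annotation, where 34958 carry 1 gene symbol, 932 several and 9211 none, with symbols updated through RefSeq (34754 matched). Array controls (64) were left out. The pseudocount of 31.4 is the 25th percentile of all values. The fit used limma 3.58.1 in R 4.3.3 (two-sided, lmFit on genotype alone, then eBayes with trend) and was tested on simulated data. The members, lists and tests were chosen with earlier results of these data known. Called Hox genes are given on every array, uncalled ones mainly by the largest and smallest difference in each cluster, and up to 4 called genes per list. Hoxa3, Hoxa5, Hoxa9, Hoxb4, Hoxb9, Hoxd10 and the uncalled list genes were named in addition, after their values were seen. Alternatives changed scaling, pseudocount, filter, variance model, arrays and covariates. Correlations of deviations from group means between same-numbered arrays were 0.026, -0.038 and 0.003. Over all tested probe sets the numbers thus showed no pairing of the arrays. A pairing that touched only some genes could not be seen this way.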

Additional observations from a re-analysis of the deposited data

How the results depend on the processing

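Hox genes called higher numbered 3 as reported, and 1 with NHE3-/- array 3 alone, with the Xist covariate or without a mean-variance trend. Those called lower numbered 2, and 1 with medians set equal or quantile normalization. With 1 array left out the Hox genes called numbered 2 to 3 higher and 1 to 3 lower. The 2 lower calls were not always the same genes. Without a mean-variance trend Hoxa2 was called lower (limma adjusted p = 0.0328) and Hoxb3 was not. With the Xist covariate Hoxa9 was called lower and Hoxb3 was not. The median log2 fold change of Hox genes, -0.36, was -0.19 without a filter and -0.15 with the probe sets of a gene averaged. The correlation with paralogue number, 0.65, was 0.38 without a filter and 0.80 with the filter at the 60th percentile. Over all probe sets, the 1342 higher and 1685 lower became 511 and 558 without the trend, and 767 were higher with NHE3-/- array 3 alone. Quantile normalization gave 1336 higher and 1335 lower, and equal medians 1595 and 839. With 1 array left out 839 to 1211 were higher and 775 to 1385 lower. As a replicate block, the replicate number gave 3 Hox genes higher and 2 lower, and 1156 and 1384 probe sets.

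Lower calls among upstream regulators, 3 as reported, were 0 with medians set equal, without the trend and with NHE3-/- array 3 alone, 1 with quantile normalization (and 1 higher) or the Xist covariate, and 0 to 3 with 1 array left out. Those among regional genes, 2 as reported, were 0 without the trend, 1 with medians set equal, quantile normalization, NHE3-/- array 3 alone or the Xist covariate, and 1 to 3 with 1 array left out. These list counts, the ratios with a pseudocount and the position count over genes with both group means above the filter were added after seeing the data. The within-array ratios without a pseudocount were also outside the initial plan. So were the position groups 1 to 8, 9 to 12 and 13 alone, and the correlation without number 13.

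The direction turned for 5 uncalled genes, and the cause was not tested. Hoxa11 (-0.06) was 0.034 with medians set equal, 0.11 with quantile normalization, 0.048 with NHE3-/- array 3 alone, 0.053 with the Xist covariate and -0.24 to 0.15 with 1 array left out. Hoxb2 (0.13), Hoxb6 (-0.15) and Hoxd10 (0.32) were -0.13, 0.14 and -0.56 with NHE3-/- array 3 alone and -0.13, 0.12 and -0.59 with the Xist covariate. With 1 array left out they ran from -0.32 to 0.43, -0.36 to 0.20 and -0.076 to 0.76, and Hoxd11 (-0.30) from -0.61 to 0.017. The other 15 tested Hox genes kept their direction in each alternative in which they were fitted singly. With 3 arrays a group, differences of the size of the uncalled ones may lie below what can be called.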
